A study of Homo sapiens with 12 samples.

Results

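The comparison described here sets HMLE cells made to express HORMAD1 together with CT83, called the double line, against HMLE cells made to express CT83 alone, called the CT83 line. It uses 3 libraries of each line, chosen by their labels, out of 12 libraries in 4 lines; the other 6 come from a control line and a line with HORMAD1 alone. HMLE cells are mammary epithelial cells of human origin that divide without limit because they carry telomerase and SV40 early-region proteins; they are an established line. All 4 lines were put through puromycin selection and no other treatment is given. The labels name 1 line per construct, and do not say whether a line is a clone or a pool, or whether the 3 libraries of a line were separate cultures. The p-values therefore reflect library-to-library spread only, possibly technical, and an effect of HORMAD1 cannot be told apart from other differences between the 2 lines.

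HORMAD1 encodes a HORMA-domain protein of the meiotic chromosome axis. In the germ line it marks unsynapsed chromosomes, is removed from synapsed axes by the ATPase TRIP13, and takes part in directing double-strand break repair to the homologous chromosome. CT83, also called KK-LC-1, is an X-linked cancer/testis gene, and both genes are silent in most adult tissues but are transcribed in some breast cancers. Because both lines carry CT83, the comparison asks what adding HORMAD1 is associated with in cells that already express CT83.

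Polyadenylated RNA was sequenced, and each library held 9898845 to 11592870 expected counts over 61533 gene entries in these 6 libraries. Levels are given as CPM, the count of a gene scaled to a common library size after normalisation. Of all entries, 15616 passed the filter on low counts and were tested with edgeR. One library of each of 3 lines stood apart: in control replicate 2, CT83 replicate 3 and HORMAD1 replicate 1, the slope of log2 CPM (set against the 12-library mean) was 0.039, 0.069 and 0.077 per doubling of transcript length, whereas in the other 9 it lay between -0.060 and 0.005. Those 3 are called the steep libraries below. Double replicate 1 had the lowest slope. Results are therefore given from all 12 libraries and again from the 9 without those 3, where the CT83 line has 2 libraries. The mammary epithelial markers were present in all 6 libraries: KRT5, a basal keratin, was at 2679.6 to 3113 CPM, KRT8, a luminal keratin, at 1766 to 2109 CPM, and TP63, the basal transcription factor, at 134 to 158 CPM. No endothelial marker passed the filter, with KDR and EMCN at 0 and a summed level over 10 markers of 0.686 to 1.82 CPM in the CT83 libraries and at 0.614 to 1.60 CPM in the double line. Of 13 immune cell markers, CD3D, CD3E, MS4A1 and NKG7 were at 0 in all 6, but CSF1R, a receptor known from macrophages, was at 133 to 164 CPM and CD14 at 4.03 to 7.98 CPM. The immune markers summed to 140.2 to 164 CPM in the CT83 libraries and to 161 to 173 CPM in the double line. Of 11 adipocyte and melanocyte markers, ADIPOQ, LEP, TYR and DCT were at 0, whereas the melanocyte gene PMEL was at 80.3 to 113 CPM and MITF at 3.25 to 6.09 CPM, and the sum was 85.0 to 109 against 106 to 118 CPM. The part of such cells in the results was not tested.

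HORMAD1 was the 1 gene that passed the test in all 12 libraries. It had 0 counts in each CT83 library, which allows at most 0.257, 0.259 and 0.287 CPM (3 counts per library, counting error only), and 283, 313 and 347 CPM in the double libraries. The lines did not overlap, and the double line was at least 1173-fold higher than that limit (314 ± 31.8 CPM, SD, n = 3; edgeR adjusted p = 0.0021 over all genes). HORMAD1 (ENSG00000143452.16) lies at chromosome 1, 150698060 to 150720888, on the minus strand of GRCh38. Its level was close to that in the line with HORMAD1 alone, whose libraries held 203, 332 and 335 CPM. The 3 double libraries lay inside that range except double replicate 3, which was the highest of the 6.

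CT83, the transgene common to both lines, was lower in the double line. It was at 400.2, 446 and 724 CPM in the CT83 libraries and at 86.7, 101 and 118 CPM in the double line. Every double library lay below every CT83 library, and the highest CT83 library was replicate 3, one of the steep ones. The mean in the double line was 19.5% of that in the CT83 line (102 ± 15.6 against 523 ± 175 CPM, SD, n = 3), a log2 fold change of -2.36 with SE 0.27. With all 12 libraries it did not pass the edgeR test (adjusted p = 0.585), and the exact two-sided permutation test gave 0.1, the smallest p that 3 against 3 allows. It passed with DESeq2 (adjusted p = 6.12e-11), with limma-voom (adjusted p = 3.1e-05) and in the edgeR fit of 9 libraries (log2 fold change -2.06, adjusted p = 0.0032). CT83 (ENSG00000204019.5) lies at chromosome X, 116461682 to 116463003, on the minus strand of GRCh38. The 2 lines therefore differ in CT83 level as well as in HORMAD1, and the part of either transgene in the differences below was not tested.

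**Figure D1:**
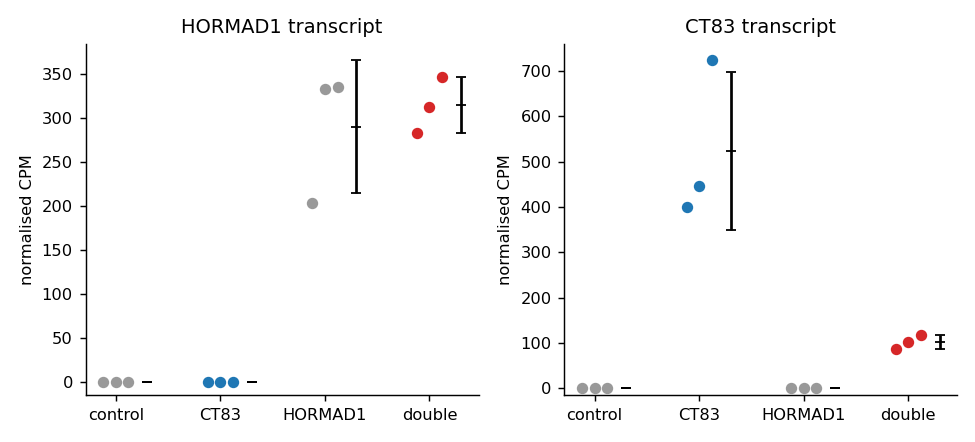
Normalised CPM of HORMAD1 (left) and CT83 (right) in each of the 12 libraries by line, with the mean and SD of 3 libraries beside the points. HORMAD1 is at 0 in the control and CT83 lines and between 203 and 347 CPM in the other 2 lines; CT83 is between 86.7 and 118 CPM in the double line and between 400.2 and 724 CPM in the CT83 line.

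Beyond the transgenes few genes passed in all 12 libraries, where edgeR did not call the CT83 difference either. In all 12 libraries edgeR called 1 gene higher (0.0064% of those tested) and 0 lower at an adjusted p under 0.05. DESeq2 called 3 (0.0192%), namely HORMAD1 and SRGN higher and CT83 lower, and limma-voom called HORMAD1 and CT83 (0.0128%). At an unadjusted edgeR p under 0.05 there were 498 genes higher (3.19%) and 759 lower (4.86%). The libraries of the 2 lines did not overlap for 1383 genes that were higher (8.86%) and 1411 that were lower (9.04%). The median log2 fold change was 0.00 over all genes tested, and 311 genes differed by at least 2-fold in fitted value, of which 111 were at a mean log2 CPM of 2 or more. Among genes at that level the SE of the log2 fold change had a median of 0.13. Genes at an unadjusted p under 0.05 that were higher had a median transcript length of 2615 bases and a GC content of 43.1%, whereas those that were lower had 4354.5 bases and 54.4%, against 3104 bases and 48.2% over all genes.

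**Figure D2:**
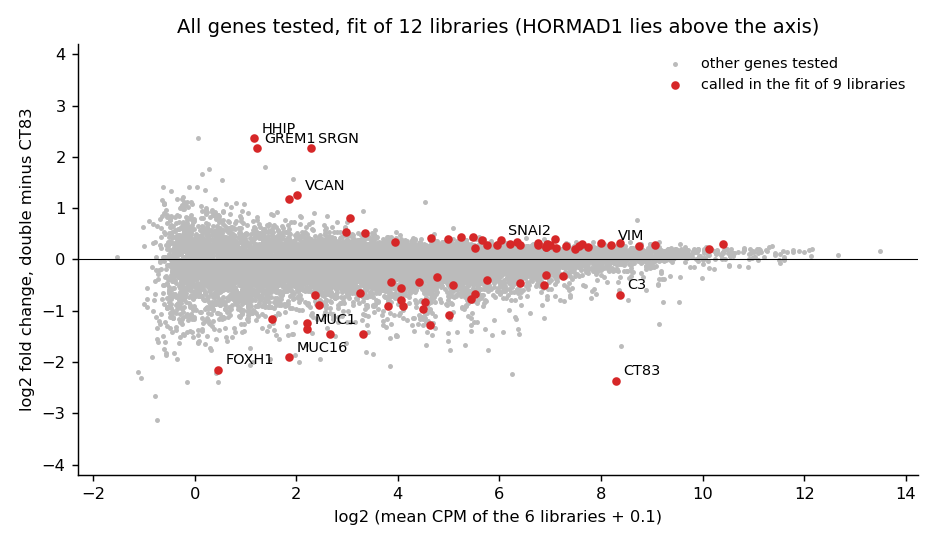
Fitted log2 fold change of the double line over the CT83 line in all 12 libraries (vertical) against the log2 mean CPM of the 6 libraries plus 0.1 (horizontal), 1 point per gene tested. Red points are genes called in the fit of 9 libraries; HORMAD1 lies beyond the vertical axis and CT83 is at -2.36.

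Among genes at a mean log2 CPM of 2 or more, the higher genes after HORMAD1 with the smallest unadjusted p and no overlap between lines were moderate in size, and none passed the test (edgeR adjusted p = 0.585 for each of the 12 named by the rule). EIF5A2, a homologue of the translation factor eIF5A, was at 24.0, 18.6 and 22.5 CPM in the CT83 libraries and at 32.7, 31.0 and 28.4 CPM in the double line, a log2 fold change of 0.50 with SE 0.13. FAP, a cell-surface serine protease best known from fibroblasts, was at 17.1, 17.4 and 17.6 against 22.5, 22.5 and 22.4 CPM (log2 fold change 0.38, SE 0.10). FAP had the tightest libraries of the 12, with an SD of 0.27 CPM in the CT83 libraries and at 0.051 CPM in the double line. NQO1, a quinone reductase and a target of the oxidative-stress factor NRF2, was at 290.7, 292 and 306 CPM against 369, 354 and 390.0 CPM (log2 fold change 0.33, SE 0.09). Every double library lay above every CT83 library. The others were EVA1A, BLZF1 (the Golgi protein golgin-45), C12orf75, WDR77 (the partner of the methyltransferase PRMT5), BLOC1S2 (a subunit of a complex that sorts cargo to lysosome-related organelles), the clathrin-associated NECAP2, the long noncoding RNAs LINC01605 and LINC01203, and MYL12-AS1. The last is an antisense RNA whose reads cannot be separated from those of its partner where counting ignored strand, and whether it did is not stated in the labels. The log2 fold changes of the 12 ran from 0.27 to 0.72.

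The lower genes chosen in the same way also stayed short of the test (edgeR adjusted p = 0.585 for each). JPH1, junctophilin 1, which ties the plasma membrane to the endoplasmic reticulum, had the smallest unadjusted p of these 12. It was at 20.7, 19.2 and 19.2 CPM in the CT83 libraries and at 13.3, 13.2 and 13.5 CPM in the double line, a log2 fold change of -0.56 with SE 0.12. SIX4, a homeobox transcription factor, was at 30.6, 30.8 and 31.0 against 23.9, 20.5 and 22.5 CPM (log2 fold change -0.46, SE 0.10). In both genes the CT83 replicate 3 library, steep elsewhere, lay with the other CT83 libraries. AIF1L, an actin-binding protein, was at 7.63, 6.83 and 8.61 against 4.79, 3.16 and 4.53 CPM (log2 fold change -0.89, SE 0.21). SLC6A6, the taurine transporter, was at 83.3, 82.0 and 89.2 against 68.1, 68.0 and 63.9 CPM (log2 fold change -0.35, SE 0.08). MAP2K7, a kinase that activates JNK, was at 39.1, 39.8 and 46.1 against 30.4, 32.2 and 30.4 CPM (log2 fold change -0.42, SE 0.10). The remaining ones were ARFGEF3, SEMA4D (a semaphorin), DENND1C (an exchange factor for a Rab GTPase), DNM1 (dynamin 1, which pinches vesicles off the membrane), CUEDC1, PNCK (a calmodulin-dependent kinase) and the antisense RNA REPIN1-AS1. The log2 fold changes of the 12 ran from -0.98 to -0.35. In the fit of 9 libraries BLZF1, NQO1, WDR77 and JPH1 of these 24 passed.

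**Figure D3:**
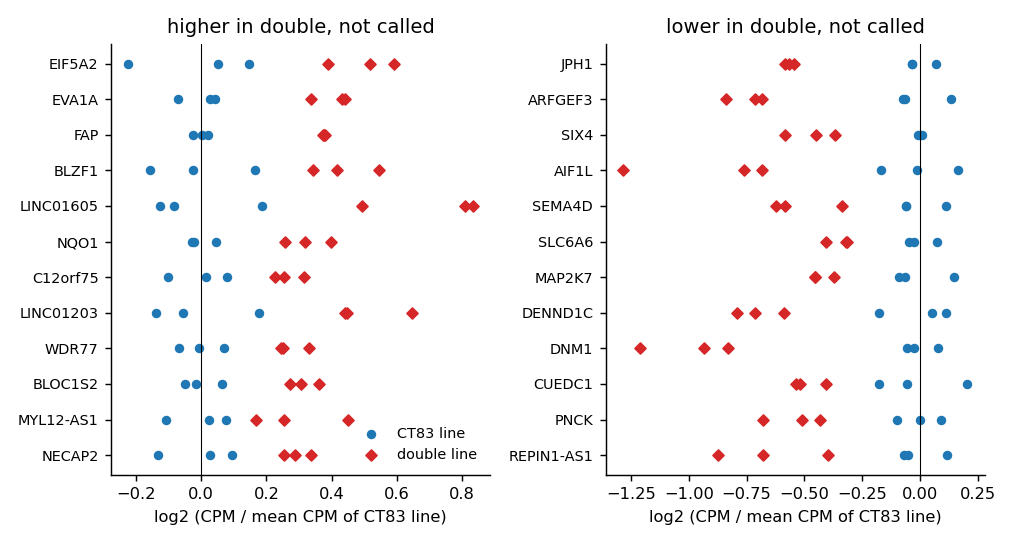
Level of each library relative to the mean of the CT83 line (log2, horizontal) for the 12 higher (left) and 12 lower (right) genes with the smallest unadjusted p and no overlap between lines at a mean log2 CPM of 2 or more, in order of p. Circles are the 3 CT83 libraries and diamonds the 3 double libraries; none of the 24 passed the test in all 12 libraries.

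The fit of 9 libraries called 42 genes higher (0.268% of 15667 tested) and 31 lower (0.198%), the transgenes included. All 73 had the same direction in the fit of all 12 libraries, where 41 had an unadjusted edgeR p under 0.05. In 48 of them the 6 libraries did not overlap. That agreement is largely built in, because the 9 libraries are among the 12. Over all genes tested, 3.19% were higher and 4.86% lower at that p. The shares without overlap over all genes were 8.86% higher and 9.04% lower. These 73 were named after their values were seen, since the rule covers the fit of 12. DESeq2, limma-voom and edgeR with length and GC offsets on the same 9 libraries called 15 of the higher genes and 9 of the lower genes along with edgeR. The calls rested on few libraries: leaving out one more of the 9 gave 1 to 166 higher and 1 to 125 lower genes. Without CT83 replicate 2, which leaves 1 CT83 library whose spread is assumed to be that of the other lines, HORMAD1 and CT83 were the only genes called. Each of the other 8, except double replicate 2, also moved at least 1 of the 2 counts by over 1.5 times when left out.

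VIM, SNAI2 and VCAN were among the 42 higher genes of that fit. The 31 lower genes also held matrix genes: the collagen COL16A1 was at 20.4, 27.7 and 56.8 CPM in the CT83 libraries and at 11.003, 16.4 and 15.6 CPM in the double line, and ADAMTSL4 had a log2 fold change of -1.28 in 9 libraries. VIM, vimentin, the intermediate filament of mesenchymal and basal-like cells, was at 234, 216 and 341 CPM in the CT83 libraries and at 275, 363 and 322 CPM in the double line. The lines overlapped through CT83 replicate 3, and the log2 fold change was 0.28 (SE 0.14) in 12 libraries and 0.51 (SE 0.10, edgeR adjusted p = 0.045) in 9. With length and GC offsets on the same 9 libraries VIM did not pass (edgeR adjusted p = 0.087), and it was called in 4 of the 9 fits that left out one more library. SNAI2, which encodes the transcription factor Slug, was at 56.5, 45.3 and 68.6 against 69.6, 72.6 and 77.7 CPM. Its groups did not overlap even with all 6 libraries, and it rose by a log2 of 0.53 in the fit of 9 (edgeR adjusted p = 0.012). It was called by all 4 methods and in 8 of the 9 fits that left out one more library. VCAN, the matrix proteoglycan versican, was at 1.20, 1.99 and 3.83 against 3.37, 5.17 and 8.15 CPM, with a log2 fold change of 1.78 in 9 libraries (edgeR adjusted p = 0.042) and a call in 2 of those 9 fits. VCAN-AS1, VIM-AS1 and an antisense RNA of TPM1 were called as well and cannot be told apart from their partners without strand. HAS2, which makes hyaluronan, and HS3ST2, which sulfates heparan sulfate, had log2 fold changes of 1.28 and 1.11 in the same fit. In both, CT83 replicate 3 was as high as the double libraries: HS3ST2 was at 8.83, 6.83 and 24.9 against 14.02, 17.1 and 19.8 CPM. The actin-binding genes TAGLN and TPM1 and the caveolar coat gene CAV1 had log2 fold changes of 0.97, 0.38 and 0.34. HAS2 was called in 3 and TAGLN in 2 of the 9 fits with one more library left out, against 8 for HS3ST2, 7 for TPM1 and 5 for CAV1. CAV1 was at 1193, 1174 and 1293 against 1416, 1425 and 1648 CPM, without overlap.

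GREM1, HHIP and SRGN, all at low levels, had the highest fold changes of the 42 after HORMAD1. GREM1, an antagonist of bone morphogenetic proteins, was at 0.343, 0.864 and 1.24 CPM in the CT83 libraries and at 2.66, 2.63 and 5.74 CPM in the double line. HHIP, a hedgehog-binding protein, was at 0.514, 0.432 and 1.15 against 2.22, 3.07 and 5.54 CPM. SRGN, the proteoglycan serglycin, was at 2.06, 2.25 and 0.861 against 5.86, 6.14 and 11.6 CPM. In these 3 genes every double library was above every CT83 library and double replicate 3 was the highest. Their log2 fold changes in the fit of 9 were 2.57, 2.89 and 1.85 (edgeR adjusted p = 0.028, 0.048 and 0.016). SRGN was the gene that DESeq2 also called in all 12 libraries (log2 fold change 2.18, adjusted p = 0.0031). DKK1, a secreted Wnt antagonist, overlapped between lines, with 138, 144 and 245 CPM against 182, 217 and 253 CPM.

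The 42 also held SPHK1, S1PR1, KLK5 and PRSS23. SPHK1, the kinase that makes the lipid mediator sphingosine-1-phosphate, was at 177, 179.9 and 236 CPM in the CT83 libraries and at 222, 254 and 222 CPM in the double line. S1PR1, one of its receptors, was at 19.6, 15.6 and 28.8 against 29.02, 25.1 and 31.3 CPM. Both rose in the fit of 9 libraries, by a log2 of 0.38 and 0.69 (edgeR adjusted p = 0.011 and 0.012), and both overlapped in all 6. KLK5, a kallikrein protease of squamous epithelium, was at 105, 109 and 139 against 137, 154 and 174 CPM. PRSS23, a secreted serine protease, was at 227, 204 and 258 against 281, 297 and 276 CPM without overlap. KLK5 and PRSS23 were called by all 4 methods and in 8 of the 9 fits with one more library left out. ANGPTL4, an inhibitor of lipoprotein lipase, NT5E (the ectonucleotidase CD73), SFN (14-3-3 sigma), ANXA5 (annexin A5), EIF5 (a translation initiation factor), FHL2 and ETS1 were also among the 42, with log2 fold changes of 0.26 to 0.54 in 9 libraries.

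C3, SAA1 and the membrane mucins MUC1 and MUC16 were among the 31 lower genes of the fit of 9. C3, the central complement component, was at 385, 414 and 425 CPM in the CT83 libraries and at 242, 288 and 227 CPM in the double line. The lines did not overlap, and C3 fell by a log2 of 0.66 with SE 0.09 in 9 libraries (edgeR adjusted p = 0.0064), against -0.69 with SE 0.26 and no call in 12. SAA1, the acute-phase protein serum amyloid A1, was at 178, 198 and 131 against 145, 129 and 131 CPM. CT83 replicate 3 lay among the double libraries. With the 3 steep libraries left out it passed (log2 fold change -0.48, edgeR adjusted p = 0.0032), whereas leaving out CT83 replicate 3 alone gave no call. SAA1 has a near-identical copy with which reads may be shared. CEBPB, a transcription factor of inflammatory and stress responses, was at 144, 140.3 and 116 against 114, 109 and 102 CPM, and ZC3H12A, an RNase that degrades cytokine transcripts, was at 66.8, 70.02 and 48.5 against 49.7, 47.7 and 42.2 CPM. MUC1, a membrane mucin of luminal cells, was at 5.83, 5.71 and 8.03 against 1.51, 2.98 and 3.12 CPM. MUC16, a larger membrane mucin, was at 3.77, 5.01 and 8.03 against 0.71, 2.02 and 1.71 CPM. The mucins did not overlap between lines, but MUC1 was called in 1 and MUC16 in 4 of the 9 fits with one more library left out.

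L1CAM, PTPRS and EPB41L1 were the lower genes with the most stable calls beside CT83, C3, SAA1 and ZC3H12A. L1CAM, an adhesion molecule first known from neurons, was at 35.0, 40.3 and 55.5 CPM in the CT83 libraries and at 16.5, 25.7 and 19.4 CPM in the double line. PTPRS, a receptor tyrosine phosphatase, was at 19.8, 22.8 and 24.5 against 10.6, 13.2 and 11.6 CPM, and EPB41L1, a membrane-skeleton protein of the 4.1 family, was at 21.2, 21.7 and 20.6 against 11.9, 12.7 and 11.9 CPM. These 3 had no overlap between lines, were called by all 4 methods on 9 libraries and in 8 of the 9 fits with one more left out. EPB41L1 was also the least variable of them within lines, with a log2 fold change of -0.80 in 12 libraries and -0.82 in 9. GDF15, a stress cytokine of the TGF-beta family, FOXH1, a transcription factor that works with SMAD proteins, the centrosomal CDK5RAP2, the cytokinesis kinase CIT and SUN2, which links the nuclear envelope to the cytoskeleton, were lower too, with log2 fold changes of -2.05 to -0.37. FOXH1 was at 0.355 to 2.49 CPM and was called in 1 of those 9 fits.

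The 31 lower genes had a median transcript length of 4339 bases and a GC content of 60.0%, and the 42 higher genes 2788.5 bases and 44.8%. With length and GC offsets in the fit of 9 libraries, edgeR called 64 genes higher and 28 lower, of which 47 were among the 73. The part of length and GC in the individual calls was not tested further.

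Adding HORMAD1 was measured once more in the series, in cells without CT83 (the line with HORMAD1 alone against control), and those 6 libraries are different from the 6 compared here. A model term for the difference between the 2 effects (the interaction) called 0 genes with edgeR in all 12 libraries (0%), with 703 at an unadjusted p under 0.05 (4.5%). DESeq2 called 3, HHIP, SRGN and ENSG00000288528, and limma-voom 0. In the 9 libraries edgeR called 22 (0.14%), 15 of them above 0 and 7 below, and 17 were among the 73 above. That overlap is partly built in, because the interaction includes the double minus CT83 difference in the same libraries. The 22 genes were named after their values were seen. Across the genes at a mean log2 CPM of 2 or more, and leaving out the transgenes, Pearson's r between the 2 effects was -0.10 in 12 libraries and 0.23 in 9. Genes are not independent replicates and share the trends of their libraries, so r is given without a test.

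SAA1 was called in the interaction by all 4 methods on 9 libraries and in all 9 fits with one more left out. It was at 154, 174 and 139.96 CPM in control, 226, 190.4 and 196 CPM with HORMAD1 alone, 178, 198 and 131 CPM with CT83, and 145, 129 and 131 CPM with both. Every library with HORMAD1 alone was above every control library, whereas the double libraries lay around CT83 replicate 3 and below the other 2 CT83 libraries. The interaction was -0.88 on the log2 scale (edgeR adjusted p = 0.00015 in 9 libraries). CXCL8, the neutrophil chemokine interleukin-8, was called by all 4 methods and in 8 of those 9 fits. It was at 98.1 and 104 CPM in replicates 2 and 3 of the line with HORMAD1 alone, but at 28.6 CPM in replicate 1, a steep library. In control it was at 50.4 to 55.6 CPM, in the CT83 line it was at 39.3 to 42.6 CPM, and the double line was at 40.2 to 47.2 CPM. Its interaction of -0.86 in 9 libraries (edgeR adjusted p = 0.0032) was -0.44 and not called in 12. BIRC3, an NF-kB target that restrains apoptosis, was at 99.4 to 124 CPM in control, 134 to 152 CPM with HORMAD1 alone, 90.5 to 111 CPM in the CT83 libraries and at 79.4 to 100.2 CPM in the double line (interaction -0.78 in 9 libraries, edgeR adjusted p = 0.011). C15orf48, CLDN4 (a tight-junction claudin), C3 and ENSG00000288528 made up the other genes with a negative interaction. They were called in 2, 4, 3 and 9 of the 9 fits with one more library left out, in that order, and BIRC3 in 4.

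The positive interactions were those of VIM, SNAI2, VCAN, GREM1, SRGN, ANGPTL4, SPHK1, KLK5, NQO1, PRSS23, PTHLH, WDR77, HS3ST2 and the antisense partners of VIM and VCAN. Most of these interaction calls were unstable when one more of the 9 libraries was left out. VCAN-AS1 was called in 5 of the 9 fits, GREM1 and SPHK1 in 4, and SNAI2, SRGN, NQO1, PRSS23, WDR77 and HS3ST2 in 3. VIM, VIM-AS1, VCAN, KLK5 and PTHLH were called in 2. Among the positive interactions, limma-voom on the 9 libraries called VIM and ANGPTL4. SNAI2 was at 66.4, 58.5 and 74.4 CPM in control and 57.1, 57.4 and 64.2 CPM with HORMAD1 alone, so those lines overlapped, whereas every double library was above every CT83 library. ANGPTL4 was at 48.5, 34.1 and 43.2 CPM in control, 38.2, 35.6 and 30.01 CPM with HORMAD1 alone, 42.8, 35.7 and 52.4 CPM with CT83, and 53.9, 59.9 and 56.98 CPM with both. Its interaction was 1.02 on the log2 scale in 9 libraries (edgeR adjusted p = 0.0032), and it was called in 7 of the 9 fits with one more library left out. GREM1 was at 1.05 to 3.71 CPM in control, 0.614 to 1.48 CPM with HORMAD1 alone, 0.343 to 1.24 CPM with CT83 and 2.63 to 5.74 CPM with both. The double line overlapped with control and with no other line. The double line overlapped with control as well for VIM, VCAN, HS3ST2, SNAI2, SPHK1, KLK5, PRSS23, PTHLH, VIM-AS1 and VCAN-AS1. SNAI2 was at 69.6 to 77.7 CPM in the double line, against 58.5 to 74.4 CPM in control. For SRGN, ANGPTL4, NQO1 and WDR77 every double library was above every control library.

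**Figure D4:**
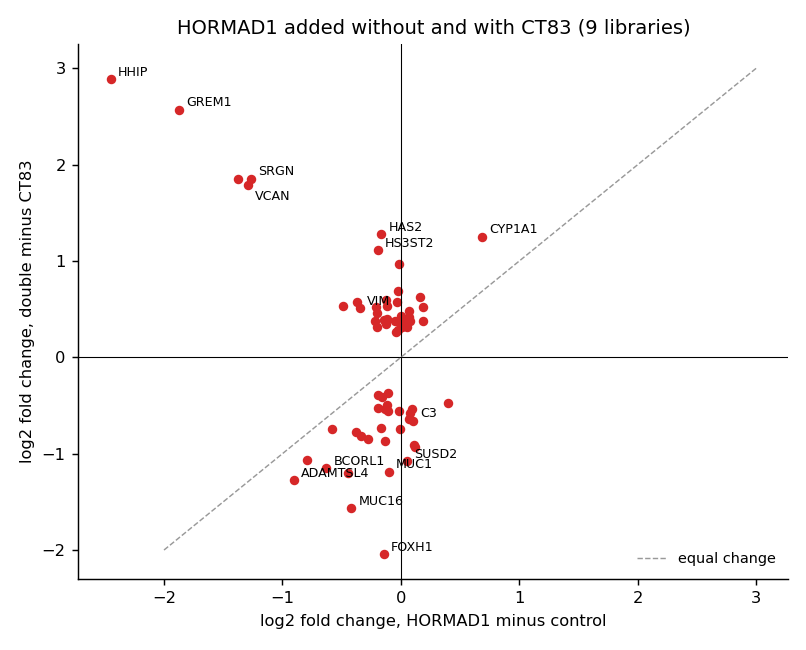
Log2 fold change of the double line over the CT83 line (vertical) against that of the HORMAD1 line over control (horizontal) in the fit of 9 libraries, for the 71 genes called in the former other than the transgenes. The dashed line marks equal change; HHIP, GREM1, SRGN and VCAN lie above 0 on the vertical axis and below 0 on the horizontal axis, and the genes were chosen on the vertical axis.

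Genes that work with HORMAD1 in meiosis were mostly not expressed. Of 45 genes of the meiotic axis and recombination, 16 were tested, 0 passed with edgeR and 0 had an unadjusted p under 0.05, and 9 were above 0 and 7 below, with a median log2 fold change of 0.01. The libraries did not overlap for C11orf80 and HSF2BP, which were lower (2 of the 16, against 9.04% over all genes). TRIP13, the ATPase that remodels HORMA-domain proteins, was at 117, 110.1 and 106 CPM in the CT83 libraries and at 120.1, 113 and 111 CPM in the double line, overlapping. MAD2L1, the HORMA-domain protein of the spindle checkpoint, was at 167, 149 and 118 against 189, 164 and 154 CPM (log2 fold change 0.22, SE 0.14). Of 53 other cancer/testis genes, 6 were tested and 0 passed, with OIP5, CEP55, PBK and KIF2C at log2 fold changes of 0.04 to 0.24.

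DNA repair genes showed small values in both directions. Of 42 homologous recombination and crosslink repair genes tested, 0 passed, 25 were above 0, and the median was 0.07. Members without overlap were 3 higher and 3 lower, shares below the 8.86% and 9.04% over all genes. EXO1, a resection nuclease, was at 55.1, 48.5 and 52.9 CPM in the CT83 libraries against 65.3, 65.5 and 57.1 CPM in the double line, and RBBP8 (CtIP, which starts resection) at 116, 113 and 98.5 against 143, 127 and 118 CPM. Those 2 and NBN were the 3 higher ones. BRCA1 (47.7, 50.8 and 64.6 against 39.8, 41.7 and 46.9 CPM) and BRCA2 (23.1, 24.2 and 29.5 against 22.8, 22.4 and 17.2 CPM) had every double library lower, with log2 fold changes of -0.35 and -0.30 that became -0.20 and -0.18 in 9 libraries. The end-joining list held 7 of 23 members lower in every double library (9.04% over all genes), among them PRKDC, the catalytic subunit of DNA-PK, RIF1 and TP53BP1. DCLRE1C and SHLD2, 2 of the 23, were higher in every double library, a share near the 8.86% over all genes. PRKDC was at 412, 399 and 465 against 312, 355 and 357 CPM (log2 fold change -0.32, edgeR unadjusted p = 0.011). The median of that list was -0.08 in 12 libraries, -0.13 in 9 and 0.01 with length and GC offsets, so its direction changed with the offsets.

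Several DNA replication genes were higher in every double library. Of 36 tested, 0 passed, 24 were above 0, 11 did not overlap and were higher (8.86% over all genes), and 3 did not overlap and were lower (9.04% over all genes), with a median of 0.09. The 11 included MCM5, MCM7, CDC45, CDC6, GINS2, RRM2 and TK1. TK1, thymidine kinase, was at 326, 313 and 313 CPM in the CT83 libraries and at 366, 369 and 366 CPM in the double line (log2 fold change 0.21). POLE, the catalytic subunit of a replicative polymerase with a long transcript, went the other way, at 41.1, 45.9 and 66.7 against 29.5, 33.8 and 36.8 CPM. Of 29 spindle and mitosis genes 0 passed, and CCNB1, cyclin B1, was at 355, 328 and 306 against 358, 340.1 and 364 CPM. CDKN1A, the p53 target p21, was at 169.7, 155 and 171 against 168, 169.5 and 169 CPM, and the p53 list of 28 had a median of -0.01.

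The median of the mesenchymal list was above 0, but its mean levels by library overlapped between lines. The median of the epithelial list changed with the offsets. Of 37 epithelial junction genes, 0 passed and 24 were below 0 (50.2% over all genes). Of them 7 did not overlap and were lower (TJP3, CLDN4, DSP, DSG2, PKP3, GRHL1 and SPINT1), against 9.04% over all genes. The median was -0.07 in 12 libraries, -0.02 in 9, where 18 were above 0 and 19 below, and 0.00 with length and GC offsets. CDH1, E-cadherin, was at 305, 316 and 388 CPM in the CT83 libraries and at 302, 305 and 273 CPM in the double line, and EPCAM at 181, 181 and 197 against 203, 186 and 155 CPM. Both overlapped between lines. Of 25 mesenchymal genes, VIM passed in the fit of 9 and 0 in 12, with a median of 0.18 in 12 libraries, 0.31 in 9 and 0.21 with offsets. FBN1, fibrillin 1, was at 1.71, 1.38 and 2.58 CPM in the CT83 libraries against 4.35, 3.51 and 8.96 CPM in the double line. TNC, tenascin C, was the member lower in every double library, at 101, 104 and 168 against 80.6, 100.1 and 80.1 CPM. The collagen COL1A1 was at 8.83, 11.1 and 23.6 against 12.4, 21.0 and 60.5 CPM, so CT83 replicate 3 and double replicate 3 were each the highest of their line. The 13 fibroblast markers summed to 125 to 132 CPM in the CT83 libraries and at 109 to 166 CPM in the double line, with FAP, PDGFRB, COL1A1, THY1 and FBLN1 above 1 CPM and MEOX2 at 0. FBLN1 was lower in every double library. The part of other cells in the mesenchymal values was not tested.

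Of 15 genes of the luminal mammary lineage, 0 passed in 12 libraries and MUC1 passed in 9. Of the 15, 10 were below 0, and 4 did not overlap and were lower (9.04% over all genes): FOXA1, MUC1, LCN2 and WFDC2. WFDC2, a secreted protease inhibitor of luminal epithelium, was at 20.4, 24.1 and 15.3 CPM in the CT83 libraries and at 14.8, 14.03 and 8.66 CPM in the double line. KRT7, a simple-epithelial keratin on the same list, was higher, at 3489.6, 3419 and 3893 against 3920.1, 3962 and 4249 CPM. The luminal median was -0.20 in 12 libraries, -0.04 in 9 and -0.17 with offsets. Of 26 basal genes, CAV1, TAGLN and SNAI2 passed as higher in the fit of 9 (0.268% over all genes). In 12 libraries 15 of the 26 were below 0, and the basal median was -0.08 in 12 libraries, 0.06 in 9 and 0.01 with offsets, so its direction depended on the fit. KRT14 was at 492, 566 and 497 against 728, 660.4 and 443 CPM, with double replicate 3 below the whole CT83 line.

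Inflammatory genes lay on both sides of 0. Of 34 NF-kB and inflammation genes, 0 passed, 20 were below 0 and the median was -0.09. TNFAIP3, the NF-kB feedback inhibitor A20, was at 45.9, 38.4 and 43.2 CPM against 35.7, 36.0 and 31.1 CPM. IL6 was at 4.37, 3.03 and 5.93 against 7.01, 8.24 and 5.74 CPM. The AP-1 and immediate early list had 20 of 23 members below 0 (median -0.16 in 12 libraries, -0.12 in 9 and -0.08 with offsets), against 50.2% of all genes below 0. Its mean level by library, relative to the mean of the 6, was 0.19, 0.12 and 0.06 in the CT83 line. In the double line it was -0.24, -0.22 and 0.09, so the lines overlapped on that measure. FOSB and JUND, 2 of the 23, were lower in every double library, against 9.04% over all genes. JUND was at 37.5, 40.7 and 37.6 against 28.04, 29.6 and 32.01 CPM. Of 31 interferon-stimulated genes, 24 were above 0 (49.8% over all genes), and 5 did not overlap and were higher (ISG15, IFI6, HERC6, SAMD9 and SAMD9L), against 8.86% over all genes. ISG15, a ubiquitin-like modifier, was at 37.4, 29.9 and 37.6 against 39.9, 44.2 and 40.7 CPM. The interferon median was 0.12 in 12 libraries, 0.12 in 9 and 0.13 with offsets, but its mean level by library, relative to the mean of the 6, was 0.20, 0.09 and -0.09 in the double line and 0.05, -0.09 and -0.16 in the CT83 line. The lines overlapped on that measure.

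Of the metabolic and stress lists, NRF2 targets and lipid synthesis genes are given in most detail. The lists of unfolded protein and integrated stress response, heat shock and hypoxia had medians of 0.02, 0.02 and 0.01 in 12 libraries. Of 25 NRF2 targets, 18 were above 0, with a median of 0.07 in 12 libraries and 0.13 with offsets. NQO1, HMOX1, TALDO1, TKT, ME1 and AKR1C3, 6 of the 25, did not overlap and were higher (8.86% over all genes). In the other direction, 0 did not overlap and were lower. The mean level by library, relative to the mean of the 6, was -0.063, 0.022 and -0.072 in the CT83 line. In the double line it was 0.037, -0.0001 and 0.075, so the lines overlapped on that measure. In cholesterol and fatty acid synthesis, 7 of 32 members did not overlap and were lower (9.04% over all genes), among them MVD, TM7SF2, SREBF1, SREBF2, ACACA and FASN. SREBF2, the transcription factor of the pathway, was at 109, 106 and 113 CPM in the CT83 libraries against 80.2, 90.5 and 89.5 CPM in the double line. The list's median was 0.02 in 12 libraries and -0.03 in 9. IDI1, NSDHL and SC5D, 3 of the 32, were higher in every double library, a share near the 8.86% over all genes.

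The lists of short housekeeping genes and of very long genes lay on opposite sides. Of 74 ribosomal protein genes, 70 were above 0 (median 0.15), as were 53 of 59 nuclear genes of oxidative phosphorylation (0.12) and 26 of 28 proteasome genes (0.11), against 49.8% of all genes. Members higher without overlap were 5 of the 74, 6 of the 59 and 5 of the 28 (8.86% over all genes). The ribosomal mean by library was 0.04, 0.00 and -0.24 in the CT83 line and 0.16, 0.06 and -0.02 in the double line. The lines overlapped on that measure. All 30 very long genes were below 0, with a median of -0.76 and 14 without overlap (9.04% over all genes). Their mean level by library, relative to the mean of the 6, was -0.10, 0.35 and 0.96 in the CT83 line and -0.81, -0.19 and -0.21 in the double line, so CT83 replicate 3 and double replicate 1 were the extremes, as they were for the slope on transcript length. In 9 libraries the medians were 0.06, 0.04, 0.10 and -0.46 in the same order. The 13 genes of the mitochondrial genome had a median of -0.19 in 12 libraries and -0.30 in 9, where all 13 were below 0. MT-ND5, 1 of the 13, was lower without overlap (9.04% over all genes). The mean level of the 13 by library was 0.27, 0.20 and -0.11 in the CT83 line and -0.02, 0.29 and -0.63 in the double line. The lines overlapped on that measure, and double replicate 2 was the highest library. Double replicate 3 was the lowest library: MT-ND1 was at 161, 159 and 147 CPM in the CT83 libraries and at 119, 159.6 and 78.6 CPM in the double line.

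**Figure D5:**
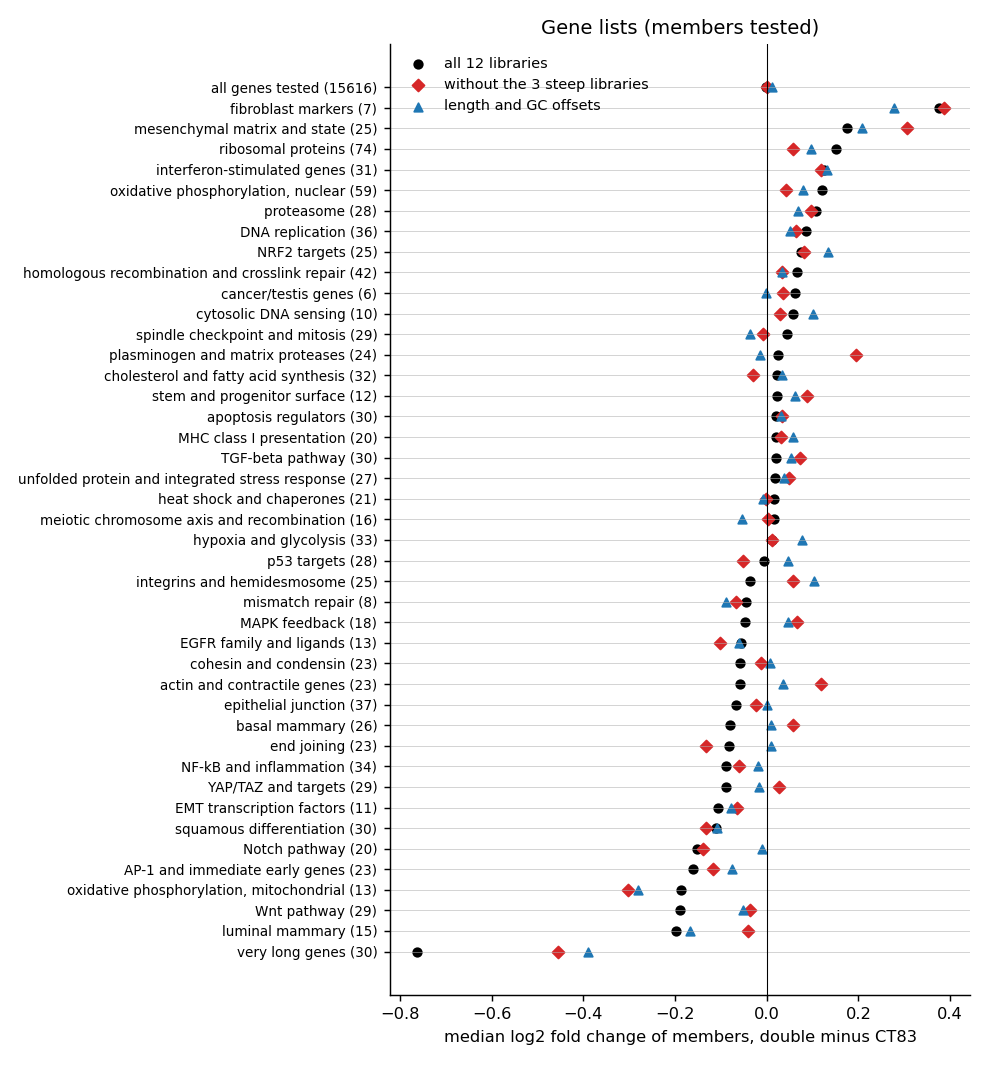
Median log2 fold change of the double line over the CT83 line for each gene list with at least 5 members tested (members tested in brackets), from all 12 libraries, from 9, and with length and GC offsets. Very long genes lie farthest below 0 at -0.76, -0.46 and -0.39, and mesenchymal genes lie above 0 at 0.18, 0.31 and 0.21.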

How the data were processed

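The deposited files give expected counts per gene, that is, estimated counts that need not be whole, made by the authors. The submitters' processing notes name Trimmomatic 0.39, STAR 2.7.5c, Picard and SAMtools, and the builds hg38 and hg19 without their roles. For the counting tool, annotation and strand setting, nothing is given in the sources used here. Expected counts were rounded, which changed 6.75% of values by at most 0.5, although the design had been written for counts. Coordinates, lengths and GC content come from GENCODE 29 (58356 of 61533 entries). The files held 0 ERCC entries.

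In R 4.3.3, edgeR 4.0.16 was used: filterByExpr at a minimum count of 10, TMM, and a robust quasi-likelihood fit of 12 libraries with a mean for each line, which leaves 8 residual degrees of freedom. The threshold was an adjusted p (Benjamini-Hochberg, over all genes tested) under 0.05. The method was tested on simulated data. DESeq2 1.42.0, limma-voom (limma 3.58.1) and other scalings, filters and sets of libraries were alternatives. Lists (45) are described by counts and medians and carry no test.

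Members and lists were chosen with earlier results of these data known. The rule named the transgenes, up to 10 called genes per direction, up to 12 per direction of those not called with the smallest unadjusted p among genes without overlap at a mean log2 CPM of 2 or more, up to 4 per list by smallest p, and 20 fixed genes. Genes called in 9 libraries, and members without overlap, were named in addition.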

Additional observations from a re-analysis of the deposited data

How the results depend on the processing

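The fit without the 3 steep libraries moved the counts from 1 to 42 higher, from 0 to 31 lower and from 0 to 22 in the interaction, and the CT83 difference to -2.06, which passed. DESeq2 gave 2, 1 and 3 (CT83 -2.36, passed), and limma-voom 1 lower (CT83 -2.32, passed). Without a low-count filter edgeR called 0 higher and 2 in the interaction (HHIP and ENSG00000288528); HORMAD1 was at 14.83 (a fitted value that depends on the prior count) and no longer passed (adjusted p = 0.051). Leaving out each library in turn gave 0 to 1 lower genes and CT83 differences of -2.53 to -2.06, and CT83 passed without CT83 replicate 3. Whether shared replicate numbers pair the samples could not be settled from 3 pairs. The correlations were 0.35, -0.08 and 0.27, and 2 of the 3 CT83 libraries correlated best with the same number. With the replicate block 1 gene was called lower, CT83 (-2.32, SE 0.12), and 1 with the block and length and GC offsets together (-2.40). On the 9 libraries, alternatives chosen after seeing the data gave 64 higher with length and GC offsets, 47 lower with DESeq2, 25 higher and 14 lower with limma-voom, and 1 to 166 higher and 1 to 125 lower with one more library left out. The cause was not tested. Apart from the transgenes and the fit of 9 libraries, 1 named gene (SRGN, DESeq2) crossed the threshold in double minus CT83. In the interaction HHIP, SRGN and ENSG00000288528 crossed it with DESeq2, and HHIP and ENSG00000288528 without a low-count filter. No called value changed sign; KRT8, TP63, CDKN1A, CCNB1, IL1A, EPCAM and KRT18, uncalled and close to 0, did so in at least 1 setting. Depth limits genes under about 1 CPM, where 3 counts are 0.257 to 0.302 CPM.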

Other observations

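Chromosome 20 had the highest share of genes that were lower in every double library. Of 313 genes there with a mean log2 CPM of at least 2, the libraries did not overlap for 51 that were lower (16.3%) and 8 that were higher (2.56%). Over all genes tested, without that cut on level, the shares were 9.04% and 8.86%. With the cut, the other chromosomes had 4.98% (chromosome 13) to 12.9% (chromosome 19) lower. Their share of higher genes ran from 4.34% (chromosome 19) to 15.3% (chromosome 18). The median log2 fold change was -0.06 in 12 libraries, -0.06 in 9 and -0.03 with length and GC offsets. The mean level of these genes, relative to their mean over the 12 libraries, was 0.03, 0.01 and 0.05 in the CT83 line and -0.14, -0.03 and -0.11 in the double line, without overlap. The median over the same genes did overlap, at 0.03, -0.02 and -0.01 in the CT83 line and -0.07, -0.01 and -0.09 in the double line. The mean was 0.06, 0.07 and -0.02 in control and 0.10, -0.01 and -0.02 with HORMAD1 alone. Chromosome 19, whose median was -0.06 in 12 libraries and 0.04 with offsets, had 12.9% without overlap and lower. The chromosome was singled out after its values were seen.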
